A study of Mus musculus with 12 samples.

Results

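The 8 genes described here handle quinones, aldehydes and epoxides or were grouped with such genes: Nqo1, Cbr1, Akr1b8, Aox1, Ephx1, Osgin1, Pir and Htatip2. They were chosen by symbol, and each symbol matched a single Ensembl entry among the 47729 genes counted in mouse muscle. All 8 passed the filter on low counts, as did 14194 genes in all. RNA sequencing had been done on muscle of male mice with a C57BL/6 strain background, all aged 5 months, in 4 groups of 3 samples. The wild-type sedentary and NRF2-KO sedentary groups had no exercise, and the wild-type and NRF2-KO treadmill groups were exercised on a treadmill. The labels name neither the muscle, nor the knockout allele, nor the length of the exercise, and they do not say whether the 3 samples of a group came from separate animals. P-values therefore measure the spread between these samples, which may be technical.

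Quinones and aldehydes arise from oxidised lipids, catecholamines and drugs. Reductases such as NQO1 convert quinones to hydroquinones without releasing the reactive semiquinone, oxidases and aldo-keto reductases remove aldehydes, and epoxide hydrolases open epoxides to diols that can be excreted. The transcription factor NRF2, the product of Nfe2l2, is held back by KEAP1 and released by electrophiles. It then binds antioxidant response elements with a small MAF partner, and Nqo1 is commonly measured to read its activity.

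Total counts were 21232040 to 29990968 per library, and the 8 genes had 51 to 1096 counts per library. Levels are given as CPM, the count scaled to a common library total after TMM normalization. For Nfe2l2 the 6 knockout libraries held 2.14 to 3.23 CPM against 35.3 to 41.8 CPM in wild type, so no library went against its label. Skeletal muscle markers summed to 95600 to 118000 CPM over all libraries, with 8 of 8 markers present. Lane codes in the labels put replicate 1 of the wild-type sedentary group on lane 7 and that of the wild-type treadmill group on lane 8. The other 10 libraries, among them all knockout libraries, shared lanes 3 and 4. Because tissue was sequenced in bulk, fewer cells of a type and less RNA per cell cannot be told apart in any value below.

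On GRCm38, the build of the counts, Nqo1 lies on chromosome 8 at 107388225 to 107403206 on the minus strand and Osgin1 on the same chromosome at 119434124 to 119446256 on the plus strand. Aox1 lies on chromosome 1 at 58029931 to 58106413 (plus strand), and Ephx1 on the same chromosome at 180976210 to 181020904 (minus strand). The other genes lie on the plus strand: Cbr1 on chromosome 16 at 93605853 to 93610505, Akr1b8 on chromosome 6 at 34354119 to 34368463, Pir on chromosome X at 164269371 to 164373011 and Htatip2 on chromosome 7 at 49759115 to 49773975. No exon of the 8 overlapped an exon on the opposite strand. Exons of Ephx1 shared 72 bases (3.69% of its exon length) with the pseudogene Gm36961. Of all 50-base words in annotated transcripts, 2.9% of those of Akr1b8 also occurred in other genes, chiefly Akr1b10, 1.85% of those of Cbr1 in Gm5678 or Cbr3 and 1.7% of those of Ephx1, so a small part of these counts is uncertain. For Nqo1, Osgin1, Pir and Htatip2 that share was 0%, and for Aox1 it was 0.612%.

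Promoter windows were examined because the genes that fell in the knockout fell together and the deleted factor binds a known element. RefSeq windows (GRCm38.p6) of 300 bases, 250 before and 50 after the start site, were given for 8 of 8 genes, with a second start for Htatip2. The core of the antioxidant response element, TGACNNNGC on either strand, occurred in 3 of these 9 windows, with 2 matches in Pir and 1 at each start of Htatip2; it occurs in 12.4% of all 32851 windows. The form TGACTCAGC occurred in the Pir window and in the window of the second Htatip2 start, against 0.454% of all windows. The shorter word TGACTCA, which those matches contain and which is also the AP-1 site, occurred in the windows of Pir, Htatip2, Osgin1 and Aox1, against 5.2% of all windows; it was chosen after the windows had been read. Neither word was found in the windows of Nqo1, Cbr1, Akr1b8 and Ephx1, which says only that these letters are not in these 300 bases. The windows of Osgin1, Cbr1 and Ephx1 lay inside the gene spans given above, so the outermost annotated start of these genes was not examined.

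The word TGACTCA was chosen after the windows had been read, and the genes with earlier results known. That all 4 genes with the word fell is therefore a description, and the part of the word in the falls was not tested. The windows that hold it are printed, with that of Nqo1, which fell without either word in its window. They are chrX:164269181-164269480 for Pir, chr7:49759262-49759561 for the second start of Htatip2, chr8:119436897-119437196 for Osgin1 and chr1:58029719-58030018 for Aox1, all on the plus strand, and chr8:107403156-107403455 on the minus strand for Nqo1. Each runs 5′ to 3′ along its gene, and capitals mark TGACNNNGC or TGACTCA on either strand.
Pir: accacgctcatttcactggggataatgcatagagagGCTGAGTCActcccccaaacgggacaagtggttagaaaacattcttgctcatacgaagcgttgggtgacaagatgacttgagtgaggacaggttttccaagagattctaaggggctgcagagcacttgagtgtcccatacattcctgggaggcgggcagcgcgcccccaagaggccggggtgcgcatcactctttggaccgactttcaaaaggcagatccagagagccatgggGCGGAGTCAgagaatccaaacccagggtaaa
Htatip2: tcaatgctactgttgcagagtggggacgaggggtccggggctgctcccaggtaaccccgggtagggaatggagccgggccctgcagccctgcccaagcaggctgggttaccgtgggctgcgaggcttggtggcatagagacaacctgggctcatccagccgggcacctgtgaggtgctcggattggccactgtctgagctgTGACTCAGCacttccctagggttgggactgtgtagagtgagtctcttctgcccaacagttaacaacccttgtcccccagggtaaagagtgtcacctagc
Osgin1: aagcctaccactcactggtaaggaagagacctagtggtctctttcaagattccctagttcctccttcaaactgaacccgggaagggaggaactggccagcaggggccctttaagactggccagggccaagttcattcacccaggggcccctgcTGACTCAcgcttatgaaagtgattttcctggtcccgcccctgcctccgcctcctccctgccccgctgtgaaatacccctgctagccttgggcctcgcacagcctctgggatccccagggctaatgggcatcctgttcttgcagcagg
Aox1: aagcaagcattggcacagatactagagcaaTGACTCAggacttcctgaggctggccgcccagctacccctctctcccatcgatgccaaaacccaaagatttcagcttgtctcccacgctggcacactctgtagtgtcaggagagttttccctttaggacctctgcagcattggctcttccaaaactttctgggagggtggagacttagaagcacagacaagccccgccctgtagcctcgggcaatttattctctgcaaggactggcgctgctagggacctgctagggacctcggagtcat
Nqo1: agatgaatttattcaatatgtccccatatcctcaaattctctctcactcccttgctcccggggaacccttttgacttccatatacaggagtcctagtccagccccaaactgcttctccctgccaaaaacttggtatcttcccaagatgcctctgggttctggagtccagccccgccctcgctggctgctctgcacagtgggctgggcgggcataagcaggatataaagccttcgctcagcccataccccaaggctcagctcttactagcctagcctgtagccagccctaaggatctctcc
In Pir the match TGACTCAGC begins 214 bases before the start site, on the opposite strand, and a further core match, TGACTCCGC, lies just after the start. In Htatip2 TGACTCAGC begins 49 bases before the second start.

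Among the quinone and carbonyl reductases, Nqo1 fell to 27.9% of its wild-type level in the knockout, while Cbr1 and Akr1b8 did not pass the test. Nqo1, the quinone reductase, had 27.5, 37.8 and 40 CPM in wild-type sedentary replicates 1 to 3 and 33.7, 43.9 and 30.2 CPM in the wild-type treadmill replicates. In the knockout it had 10.2, 9.83 and 9.05 CPM in sedentary and 10.3, 10.1 and 9.93 CPM in treadmill muscle. Every knockout library lay below every wild-type library, and the lowest wild-type values came from lane 7 in the sedentary group and from lane 4 in the treadmill group. The knockout lowered Nqo1 3.62-fold without exercise, a log2 fold change of -1.85 (SE 0.15), with an adjusted p of 2.28e-05 in the quasi-likelihood test of edgeR, adjusted by Benjamini-Hochberg over 14194 genes. With treadmill exercise the fall was 3.55-fold (-1.83, SE 0.15, edgeR adjusted p = 2.73e-05).

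Cbr1, a carbonyl reductase that also accepts quinones and prostaglandins, had 15.8, 15 and 14.3 CPM in wild-type sedentary and 15.4, 13.1 and 14.1 CPM in wild-type treadmill muscle. Its knockout values were 13.2, 12.2 and 13.3 CPM in sedentary and 12.1, 12 and 12.2 CPM in treadmill muscle. Within each exercise state the knockout libraries lay below the wild-type ones, and across states the genotypes overlapped slightly. Groups of 3 did not overlap in 12% of all genes tested in sedentary muscle and in 13% in treadmill muscle. The difference averaged over the states was -0.23 on the log2 scale (95% interval -0.36 to -0.10) and did not pass after adjustment by edgeR (adjusted p = 0.124, unadjusted p = 0.00225). The interval of this difference excludes a fall as large as that of Nqo1.

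Akr1b8, a mouse aldo-keto reductase that reduces aldehydes, was low in all libraries. It had 2.55, 2.32 and 2.69 CPM in wild-type sedentary and 3.53, 2.52 and 2.81 CPM in wild-type treadmill muscle, against 3.32, 3.62 and 3.14 CPM and 2.97, 3.3 and 2.69 CPM in the corresponding knockout groups. The sedentary groups did not overlap, with the knockout libraries above, and the treadmill groups did, the highest wild-type value coming from lane 8. The log2 fold change was 0.41 in sedentary muscle (95% interval 0.08 to 0.75, edgeR adjusted p = 0.568) and 0.00 in treadmill muscle (-0.33 to 0.33, adjusted p = 0.999). These libraries had 51 to 109 counts of Akr1b8. At the mean counts of the 4 groups, counting alone gives a coefficient of variation of 10.9% to 12.1%.

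Aox1, a molybdenum-containing oxidase of aldehydes and nitrogen heterocycles, fell about as far as Nqo1. In wild-type muscle it had 32.8, 36 and 34 CPM in the sedentary and 28.4, 36.1 and 26.8 CPM in the treadmill libraries. The knockout libraries had 11.4, 10.1 and 8.87 CPM without exercise and 11.4, 8.63 and 9.74 CPM with it. No knockout library came near the lowest wild-type value. By edgeR the log2 fold change was -1.76 (SE 0.13, adjusted p = 8.55e-06) in sedentary and -1.61 (SE 0.13, adjusted p = 2.73e-05) in treadmill muscle.

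Ephx1, the microsomal epoxide hydrolase, varied more between libraries than between genotypes. It had 21.7, 19 and 12.6 CPM in wild-type sedentary and 20.8, 14.2 and 14 CPM in wild-type treadmill muscle. Knockout values were 18.7, 13.4 and 12.9 CPM and 17.4, 14.1 and 12.8 CPM in the same order. In each of the 4 groups replicate 1 was the highest, and the highest values of all were the wild-type libraries of lanes 7 and 8. The averaged log2 fold change was -0.20 (95% interval -0.52 to 0.11, edgeR adjusted p = 0.605), and it was -0.01 with lane as a term in the fit and -0.01 without the libraries of lanes 7 and 8. In treadmill muscle alone the value went from -0.15 to 0.09 with lane as a term and 0.07 without those libraries, none of which passed.

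Osgin1, which encodes an oxidative stress-induced growth inhibitor, had the largest estimated fall of the 8 genes in sedentary muscle. It had 13.4, 14.5 and 11.9 CPM in wild-type sedentary and 10.9, 11.5 and 11.4 CPM in wild-type treadmill libraries. Knockout libraries had 3.32, 3.7 and 2.85 CPM in the sedentary and 3.43, 3.12 and 3.69 CPM in the treadmill group. The genotypes were well apart in both states. The log2 fold change was -2.01 in sedentary muscle (SE 0.12, adjusted p = 8.26e-07 by edgeR) and -1.72 in treadmill muscle (SE 0.12, adjusted p = 7.32e-06).

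Pir encodes pirin, an iron-binding nuclear protein of the cupin fold, for which quercetinase activity is known from the human protein. It had 4.85, 6.29 and 6.54 CPM in wild-type sedentary and 6.32, 5.42 and 4.77 CPM in wild-type treadmill muscle. Its knockout levels were 2.2, 2.43 and 2.14 CPM and 2.85, 2.89 and 2 CPM, all below the wild-type range. The fall was 2.6-fold in sedentary muscle (log2 fold change -1.38, SE 0.18, edgeR adjusted p = 0.00221) and 2.15-fold in treadmill muscle (-1.10, SE 0.18, adjusted p = 0.0166). The treadmill call was lost without any 1 of 5 libraries: knockout treadmill replicate 1, 2 or 3 (edgeR adjusted p = 0.0528, 0.0504 and 0.0979) and wild-type treadmill replicate 1 or 2 (0.0737 and 0.0594). The log2 fold changes in these fits were -1.18, -1.19, -0.95, -0.99 and -1.12 in the same order.

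Htatip2, whose human product TIP30 is a short-chain dehydrogenase-like tumour suppressor, had the smallest of the falls. Wild-type libraries were close together, at 7.79, 7.7 and 7.86 CPM in the sedentary and 8.46, 7.59 and 7.66 CPM in the treadmill group. In the knockout the values were 4.36, 5.17 and 5.65 CPM without exercise and 4.64, 4.06 and 4.31 CPM with it, and the ranges of the genotypes did not meet in either state. By edgeR the log2 fold change was -0.62 in sedentary muscle (SE 0.11, adjusted p = 0.0489) and -0.87 in treadmill muscle (SE 0.12, adjusted p = 0.00344). The sedentary call sat at the threshold: it held without wild-type treadmill replicate 1 (adjusted p = 0.0488) and was lost without any other of the 12 libraries, with adjusted p of 0.067 to 0.206 and log2 fold changes of -0.71 to -0.52, and it was lost without both libraries of lanes 7 and 8 (log2 fold change again -0.62, adjusted p = 0.0902).

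**Figure D1:**
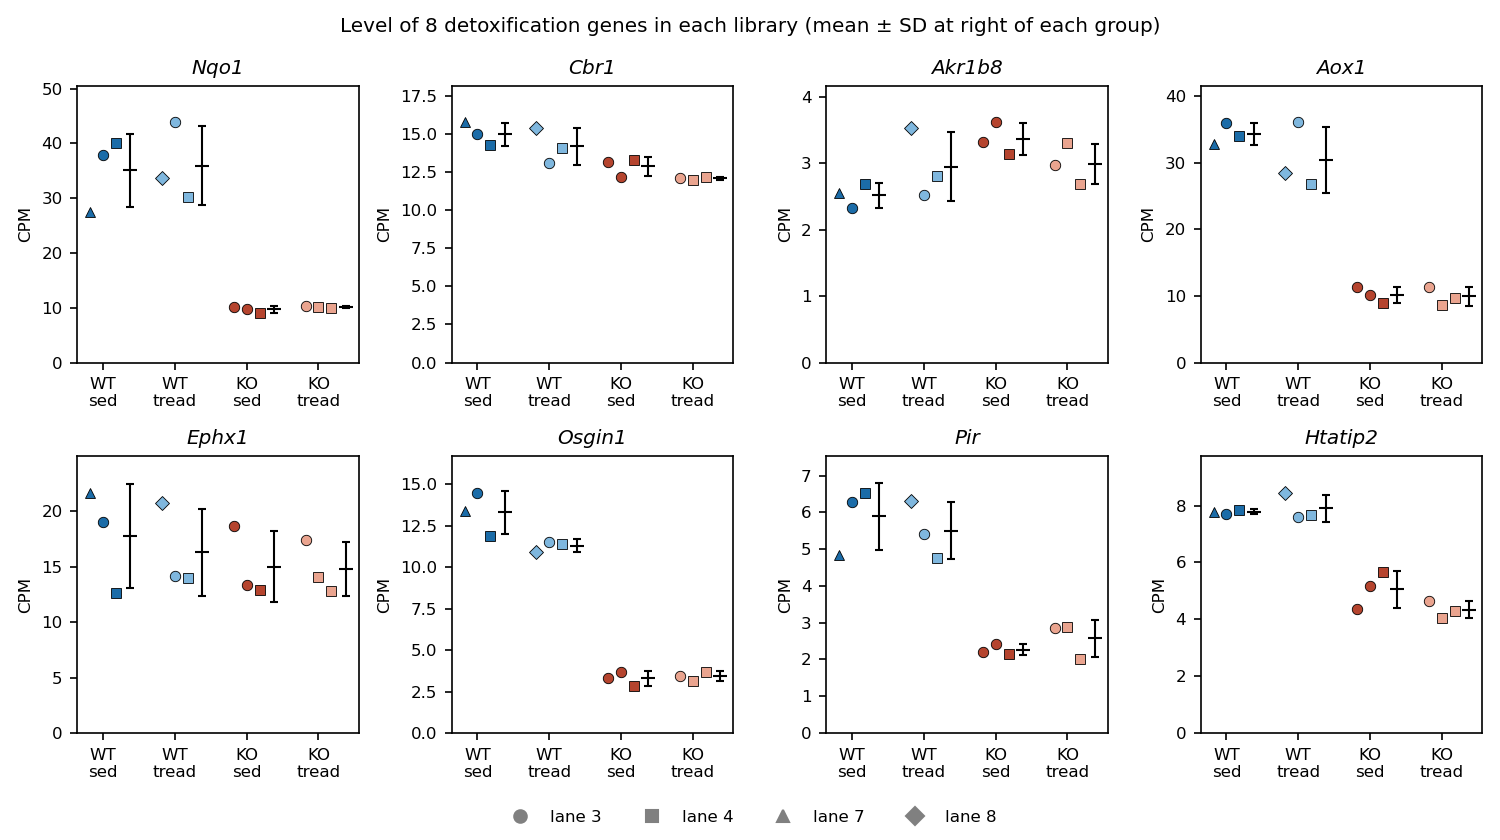
CPM of each of the 8 genes (vertical axis, from 0) in every library of the 4 groups; WT is wild type, KO is knockout, marker shape gives the sequencing lane, and the black bar beside each group is the mean ± SD of its 3 libraries. Knockout libraries of Nqo1, Aox1, Osgin1, Pir and Htatip2 all lie below the wild-type libraries, and those of Cbr1, Akr1b8 and Ephx1 overlap them.

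Taking the 8 genes as a group, 5 fell in sedentary knockout muscle, 0 rose and 3 did not pass, and the same counts were found in treadmill muscle and averaged over the states. The genes that fell were Nqo1, Aox1, Osgin1, Pir and Htatip2 each time. Over all 14194 genes 0.176% were called lower and 0.0141% higher in sedentary muscle, and 0.155% lower and 0.00705% higher in treadmill muscle. In the averaged comparison 0.69% were called, with 0.564% lower. An unadjusted p under 0.05 was found for 7 of 8 genes in sedentary muscle, against 7.65% of all genes, and for 6 of 8 in treadmill muscle, against 6.72%. The median log2 fold change of the 8 genes was -1, -0.98 and -0.99 in these comparisons, beside 0.01 over all genes in each. In 5 of 8 genes the 6 knockout libraries did not overlap the 6 wild-type libraries, as was the case for 1.79% of all genes tested. The genes had been chosen with earlier results of these libraries known, so their number among the calls is a description.

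The falls differed in size. Averaged over the exercise states, the knockout level was 27.4% of wild type for Osgin1, 27.9% for Nqo1, 31.1% for Aox1, 42.4% for Pir and 59.8% for Htatip2. On the log2 scale the 95% intervals were -2.05 to -1.68 for Osgin1, -2.07 to -1.61 for Nqo1 and -1.89 to -1.49 for Aox1, which overlap each other. The interval of Htatip2, -0.92 to -0.57, lay above all of these and above that of Pir, -1.51 to -0.97. Within lane 3 and within lane 4, each with 3 knockout and 2 wild-type libraries, the log2 difference was -1.89 and -1.87 for Osgin1, -2.01 and -1.84 for Nqo1 and -1.72 and -1.74 for Aox1. For Pir it was -1.24 and -1.27 and for Htatip2 -0.70 and -0.75. The falls were thus also present without lanes 7 and 8, where for Ephx1 the difference was -0.01 and 0.00, for Cbr1 -0.17 and -0.18 and for Akr1b8 0.45 and 0.14.

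**Figure D2:**
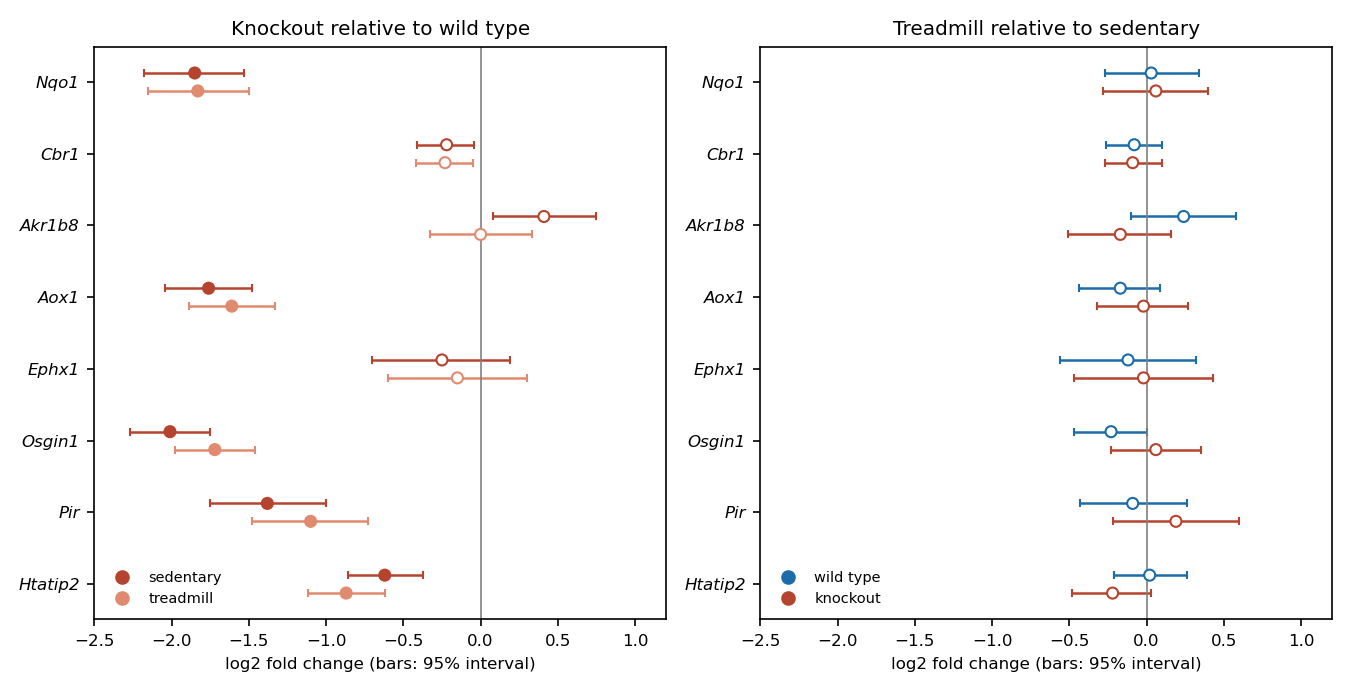
Log2 fold change (horizontal axis) of each of the 8 genes with its 95% interval, for knockout relative to wild type in each exercise state (left) and for treadmill relative to sedentary in each genotype (right); filled points have an adjusted p under 0.05 by edgeR. The 5 genes that fell stand left of 0 in both states, and all treadmill intervals except that of Osgin1 in wild type, which ends at 0, include 0.

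The treadmill comparison asked whether exercise changed these genes, and none of the 8 passed in either genotype. In wild-type muscle 0 of 8 passed by edgeR, DESeq2 or limma-voom, and 1 had an unadjusted p under 0.05; over all genes 0% passed and 2.17% had an unadjusted p under 0.05. That gene was Osgin1, at 13.3 ± 1.3 CPM (SD, n = 3) in sedentary and 11.3 ± 0.37 CPM in treadmill muscle (log2 fold change -0.23, 95% interval -0.47 to 0.00, unadjusted p = 0.0498 and adjusted p = 0.999 by edgeR). It was also the only member of the 8 whose sedentary and treadmill libraries did not overlap in wild type, as 5.72% of all genes did not. Nqo1 averaged 35.1 ± 6.7 CPM (SD, n = 3) in sedentary and 35.9 ± 7.2 CPM in treadmill wild-type muscle. Its log2 fold change of 0.03 had a 95% interval of -0.27 to 0.34.

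In knockout muscle 0 of 8 genes passed by edgeR, DESeq2 or limma-voom, and 0 had an unadjusted p under 0.05, against 0% and 3.76% of all genes. In these libraries Htatip2 had the smallest p of the 8, at 5.06 ± 0.65 CPM (SD, n = 3) in sedentary and 4.34 ± 0.29 CPM in treadmill muscle (log2 fold change -0.22, 95% interval -0.48 to 0.03, adjusted p = 1 by edgeR). Nqo1 averaged 9.69 ± 0.58 and 10.1 ± 0.17 CPM. Averaged over genotypes the 8 log2 fold changes ran from -0.10 to 0.05, 0 of 8 passed by edgeR, DESeq2 or limma-voom, and 0 had an unadjusted p under 0.05 by edgeR. Over all genes 0% passed by edgeR and by limma-voom and 0.00705% by DESeq2, and 4.15% had an unadjusted p under 0.05 by edgeR. The intervals do not show that exercise left the genes alone: the widest, for Ephx1, reached 0.32 to either side of its averaged value.

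Whether the knockout effect differed between the exercise states was tested by the interaction. None of the 8 genes passed by edgeR, DESeq2 or limma-voom, and 0 had an unadjusted p under 0.05, against 0% and 1.9% of all genes. Akr1b8 had the smallest p, with a log2 difference between the knockout effects of -0.42 (95% interval -0.89 to 0.06, unadjusted p = 0.0833, edgeR adjusted p = 1). Osgin1 had 0.29 (-0.08 to 0.66) and Htatip2 -0.25 (-0.60 to 0.10). For Nqo1 the difference was 0.03, with an interval of -0.43 to 0.48, and for Aox1 0.15 (-0.24 to 0.54).

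Per length of annotated exon, the order of the 8 genes differed between genotypes. On the RPKM scale, CPM per kilobase of exon, Nqo1 was the most abundant in wild-type sedentary muscle at 22.6 ± 4.3 (SD, n = 3), followed by Ephx1 at 9.11 ± 2.4, Cbr1 at 5.88 ± 0.3 and Osgin1 at 4.96 ± 0.49. Aox1 at 3.94 ± 0.19 and Htatip2 at 3.85 ± 0.04 overlapped, and Akr1b8 at 1.68 ± 0.13 and Pir at 1.06 ± 0.16 came last. In sedentary knockout muscle Ephx1 led at 7.69 ± 1.6 RPKM, above Nqo1 at 6.24 ± 0.37 and Cbr1 at 5.04 ± 0.24, all with separate ranges. Htatip2 at 2.5 ± 0.32 and Akr1b8 at 2.24 ± 0.16 RPKM overlapped there, as did Osgin1 at 1.23 ± 0.16 and Aox1 at 1.16 ± 0.14, and Pir stayed last at 0.407 ± 0.027. The treadmill groups had the same leading gene as the sedentary group of their genotype, although Ephx1 and Nqo1 overlapped in the treadmill knockout. Nqo1 made up 42.4% ± 6.7 of the summed RPKM of the 8 genes in wild-type sedentary and 44.6% ± 5.5 in wild-type treadmill muscle, and 23.5% ± 0.75 and 25.2% ± 1.2 in the knockout (SD, n = 3 per group). The sum itself was 53.1 ± 2.9 and 51.7 ± 5 RPKM in wild type and 26.5 ± 1.9 and 25.8 ± 1.6 RPKM in the knockout.

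The spread between libraries of a group also differed between genes, and was set beside what counting alone would give. For Nqo1 the coefficient of variation was 19% and 19.9% in the wild-type groups, where counting gives 3.29% and 3.37%. In the knockout groups it was 5.99% and 1.66%, at or below the 6.42% and 6.35% from counting. Libraries of lanes 7 and 8 were in the wild-type groups, and their part in the wider spread there was not tested. Ephx1 was above counting error in all 4 groups, with 26.3%, 23.8%, 21.2% and 16% against at most 5.24%. Wild-type sedentary Htatip2, at 1.05% where counting gives 6.9%, was among the tightest. With 3 libraries a group these values are themselves imprecise and were not tested against each other.

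**Figure D3:**
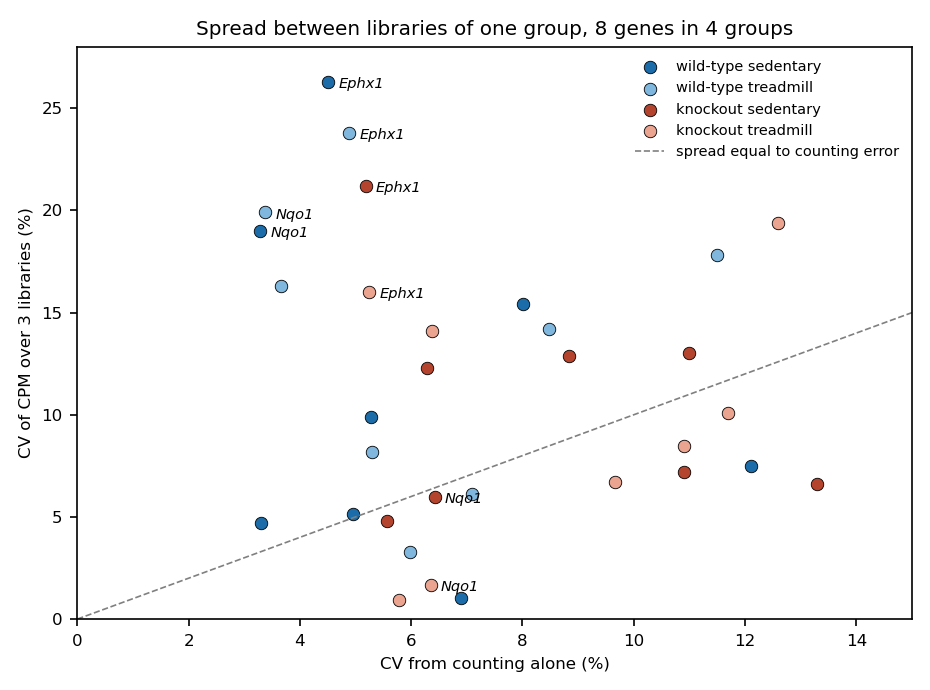
Coefficient of variation of CPM over the 3 libraries of a group (vertical axis, percent) against the value expected from counting alone at the group's mean count (horizontal axis, percent), for 8 genes in 4 groups; the dashed line marks equality. Ephx1 lies above the line in every group, and Nqo1 lies above it in the wild-type groups, at 19% and 19.9%, and below it in the knockout groups.

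A wider list of 60 genes of the same chemistry was then examined, and 53 of them passed the filter on low counts. With the filter on low counts, all 12 libraries and no replicate block, none was called in any of the 7 comparisons by edgeR. In the averaged knockout comparison 0 of 53 passed, 8 had an unadjusted p under 0.05 (12.4% of all genes did) and the median log2 fold change was -0.01, with 29 genes below and 24 above 0. DESeq2 called Aldh4a1 and Aldh1l2 there, and limma-voom called 0. Median log2 fold changes by role were 0.01 for 6 other quinone reductases and electron donors, -0.01 for 6 carbonyl reductases, -0.04 for 7 aldo-keto reductases, 0.00 for 18 aldehyde dehydrogenases, -0.25 for 4 alcohol dehydrogenase and alkenal reductase genes, 0.03 for 7 molybdenum oxidases and cofactor genes and 0.02 for 4 epoxide hydrolases. Nqo2, the paralogue of Nqo1, had 31.1 ± 3.7 CPM in wild type and 34.9 ± 1.6 CPM in the knockout (SD, n = 6; log2 fold change 0.17, edgeR adjusted p = 0.397). Osgin2, the paralogue of Osgin1, had 7.55 ± 0.39 and 7.5 ± 0.42 CPM, and Ephx2, the soluble epoxide hydrolase, 27.1 ± 3.1 and 28.3 ± 3 CPM. These 3 paralogues were picked with their values known.

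The smallest p of that list belonged to 4 genes. None of them passed by edgeR with the filter on low counts, all 12 libraries and no replicate block. With the block, Aldh4a1 and Aox3 passed as lower in the knockout. Without the filter all 4 passed by edgeR, where 567 of 26350 genes were called. Aldh4a1, a mitochondrial enzyme of proline breakdown, had 35.4 to 43.6 CPM in wild type and 29.2 to 34 CPM in the knockout, without overlap (log2 fold change -0.29, SE 0.06, adjusted p = 0.0575). Aox3 lies 6716 bases beyond Aox1 on chromosome 1, at 58113130 to 58200698, and encodes another aldehyde oxidase. At 0.299 to 1.17 CPM in wild type and 0.115 to 0.316 CPM in the knockout it was counted at a low level (log2 fold change -1.58, SE 0.39, adjusted p = 0.0947). Aldh1l2, a mitochondrial folate enzyme, had 4.6 ± 0.89 CPM in wild type and 6.39 ± 0.76 CPM in the knockout (SD, n = 6; 0.48, adjusted p = 0.108). Aldh2, the mitochondrial acetaldehyde dehydrogenase, had 76.4 ± 12 and 63.2 ± 6.1 CPM (-0.28, adjusted p = 0.221). Mocos, which activates the molybdenum cofactor that aldehyde oxidases need, had 4.38 ± 0.41 and 4.47 ± 0.52 CPM; it too was picked with its values known.

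**Figure D4:**
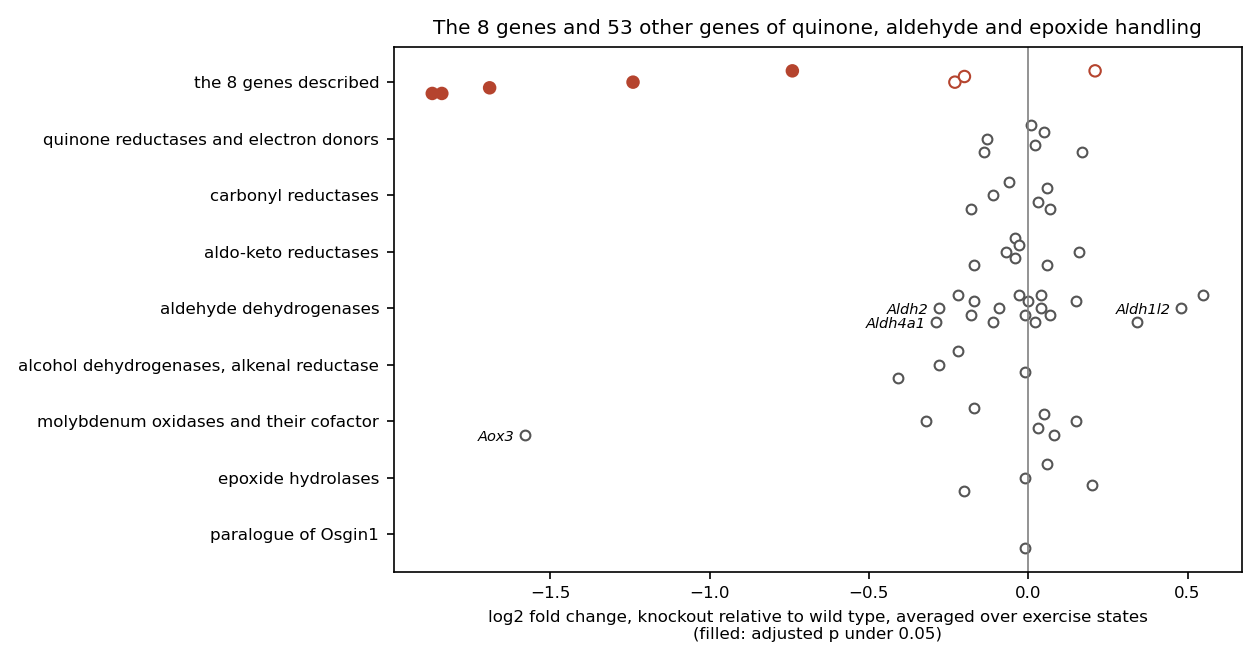
Log2 fold change of knockout relative to wild type averaged over the exercise states (horizontal axis), with a point for each of the 8 genes (top row) and for each of 53 other genes by role; filled points have an adjusted p under 0.05 by edgeR. The filled points are Osgin1, Nqo1, Aox1, Pir and Htatip2, and outside the top row only Aox3, at -1.58, lies below -0.5.

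The genes whose pattern was most like that of Nqo1 were sought among 8776 genes with a mean of at least 5 CPM, by the root mean square difference of centred log2 CPM over the 12 libraries. Aox1 was nearest at 0.17 and Osgin1 next at 0.22, followed by Insyn1 at 0.31, Srxn1, the sulfiredoxin gene, at 0.43 and Slc40a1, the ferroportin gene, at 0.48. The median over the 8776 genes was 0.94. Pir, with means of 5.7 CPM in wild type and 2.42 CPM in the knockout, was below the limit of 5 CPM and was not ranked. For Akr1b8 the nearest were Pip4k2a at 0.10, Anxa5 at 0.11 and Selenop at 0.11, where the median was 0.24. Akr1b8 itself was below the limit, with means of 2.74 CPM in wild type and 3.17 CPM in the knockout. Counting alone gives it a coefficient of variation of 10.9% to 12.1%, and the part of counting error in this ranking was not tested. The nearest genes lie below the median by the way they were found.

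Markers of other cell types were set beside these values. Of the 5 tendon cell markers, all were measured and none was at 0; they summed to 281 to 305 CPM in wild-type sedentary, 234 to 299 in wild-type treadmill, 343 to 405 in knockout sedentary and 318 to 339 in knockout treadmill muscle. The knockout sums lay above the wild-type sums, and 1 of the 5 markers was called higher in the averaged comparison, against 0.127% of all genes. Nqo1, Aox1, Osgin1, Pir and Htatip2 were lower there, and the part of tendon cells in the result was not tested. The 6 adipocyte markers, none at 0, summed to 92.4 to 144 and 126 to 171 CPM in the wild-type groups and 99.7 to 287 and 70.9 to 150 CPM in the knockout groups, which overlap. The 5 Schwann cell markers, none at 0, summed to 30.9 to 52.4 CPM in wild-type and 43 to 54.4 CPM in knockout sedentary muscle, which overlap. In treadmill muscle their sums were 38.6 to 44.1 CPM in wild type and 46.6 to 49.6 CPM in the knockout, without overlap, and their part in the result was not tested. Fibroblast, endothelial, macrophage and erythroid marker sums overlapped between genotypes within each exercise state.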

How the data were processed

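Libraries of 12 muscle samples were made, per the labels' protocol, with the TruSeq RNA kit (version 2), a kit without strand information. Tools named in the submitters' processing notes are STAR 2.4.1d, featureCounts 1.4.6-p4 and bcl2fastq 1.8.4, with the build GRCm38. Neither annotation release nor strand setting is given in the sources used here. Raw counts per Ensembl gene, as deposited, underlie every value. The deposited RPKM table was not used here, since the gene length its values imply differed between samples.

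Symbols, exon lengths and coordinates came from GENCODE M21 (GRCm38), which named 47310 of 47729 genes. The tests used edgeR 4.0.16 under R 4.3.3 (TMM, filterByExpr with a minimum count of 10, quasi-likelihood test, 1 coefficient per group, 8 residual degrees of freedom, 7 comparisons). Benjamini-Hochberg adjustment ran over 14194 genes, with a threshold of 0.05. SE is the log2 fold change divided by the root of the F statistic. RPKM values in the text were computed here from the counts and GENCODE exon lengths.

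The members and lists were chosen with earlier results of these data known. Named genes are the 8 members, Nfe2l2 and the 4 genes of the wider list with the smallest p. The genes nearest to Nqo1 (5) and Akr1b8 (3) are named too. Adh1 and Aldh1a7 are named because they were called without the filter. Akr1b10, Cbr3, Gm5678 and Gm36961 are named because they share sequence with members. Nqo2, Osgin2, Ephx2 and Mocos were picked with their values known. The groups share replicate numbers. Deviations from group means of same-numbered wild-type libraries correlated at 0.54, 0.30 and 0.26 between exercise states. Libraries with different numbers were not correlated, so these values cannot show whether the numbers pair samples. The labels give no pairing, and the main fit used none. Wild-type replicates 2 and 3 also share a lane with the library of the same number. Replicate 1 was on lane 7 without and lane 8 with exercise. In each of the other pairs of groups that were compared, which shared a genotype or an exercise state, at least 1 correlation was below 0.1. Alternatives were RLE normalization, DESeq2 1.42.0, limma-voom (limma 3.58.1), no filter on low counts, lane as a term, leaving out lanes 7 and 8, a replicate block, and leaving out each of 12 libraries.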

Additional observations from a re-analysis of the deposited data

How the results depend on the processing

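The count of 5 genes lower in the knockout was found in the averaged comparison under every alternative run. In sedentary muscle it was 4 without the libraries of lanes 7 and 8, where 35 of all 14266 genes were called. When each library was left out in turn it was 4 to 5 in sedentary muscle, where 16 to 36 of all genes were called. In treadmill muscle it was 4 to 5 in those runs, where 15 to 30 of all genes were called. The genes lost were Htatip2 in sedentary and Pir in treadmill muscle, and fewer samples enter these fits. With the replicate block the counts were 5, 5 and 5 in the knockout comparisons and 0 in the treadmill comparisons, so it changed no call. Blocking only the 6 wild-type libraries, an alternative chosen after seeing the data, gave 0 of 8 for the treadmill effect, where 1 of all 13739 genes was called. In the treadmill and interaction comparisons 0 of 8 genes passed under every alternative run. No called gene changed direction. In the wider list the averaged knockout comparison gave 0 of 53 genes by edgeR, where 98 of all 14194 genes were called. It gave 2 by DESeq2 (235 of all genes) and 2 with the replicate block (Aldh4a1 and Aox3; 217 of all genes). Without wild-type sedentary replicate 2 it gave Aldh1l2 (64 of 14437 genes) and without replicate 3 Aldh4a1 (160 of 14433). Without a filter on low counts it gave 6 of 60 genes: Adh1, Aldh1a7, Aldh1l2, Aldh2, Aldh4a1 and Aox3 (567 of 26350). That fit gave 3 in sedentary muscle (Adh1, Aldh1a7 and Aox3, with 323 of 26350) and 1 in treadmill muscle (Aldh2, with 207 of 26350). Over all genes, calls in sedentary muscle went from 27 to 72 by DESeq2, 42 with the block and 81 with lane as a term. In treadmill muscle they went from 23 to 55, 40 and 103 in the same order. In the averaged comparison lane as a term gave 264. Without the filter the treadmill effect gave 33 genes in wild type, 139 in the knockout and 91 averaged, and the interaction gave 68. The main fit, with the filter, called 0 in each. With the filter and lane as a term, 26 genes were called for the treadmill effect in the knockout and 28 averaged. That fit called 0 in wild type and 0 for the interaction, and DESeq2 called 1 averaged. The cause of these differences was not tested. Depth limits Akr1b8 and Pir most, each with as few as 51 counts in a library.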
